A study of Mus musculus with 4 samples.

Results

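The cells described here are *Sox9*- and type IX collagen-expressing mesenchymal cells of the embryonic mouse penis. They were chosen by their own mRNA values: a cell was taken when it had 1000 to 10000 unique molecular identifiers (UMIs, each marking 1 captured mRNA molecule), at most 25% of them mitochondrial and at most 25% hemoglobin, and at least 1 UMI of 4 or more of the 8 genes *Sox9*, *Col2a1*, *Col9a1*, *Col9a2*, *Col9a3*, *Sox5*, *Sox6* and *Ecrg4*. This gate took 1651 of the 33704 cells within the UMI, mitochondrial and hemoglobin limits, out of 47040 barcodes in all. The libraries were 10x Genomics 3' single-cell libraries of male genitalia at embryonic day 16.5, 2 labelled DTA- with the genotype WT and 2 labelled DTA+. By the study's account, the DTA+ embryos carried *Nr5a1-Cre*, which removes the stop before a diphtheria toxin gene in the Rosa26 locus and so kills cells that have expressed *Nr5a1*, while the DTA- embryos had the same toxin allele and no Cre. The breeding scheme for ablation also brought in a Cre-dependent *tdTomato* reporter in the other Rosa26 allele. The Cre acts in the adrenal glands and testes as well as in the genitalia, so the ablated embryos differ in more than the penis. The sources do not give the number of embryos in a library, and p-values therefore measure the spread between libraries.

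In the order DTA- replicate 1, DTA- replicate 2, DTA+ replicate 1 and DTA+ replicate 2, which all lists of 4 values below follow, the libraries held 73577028, 53654435, 50794318 and 50779551 UMIs. The gate took 433, 440, 368 and 410 cells, with a median of 6864, 5269.5, 4632.5 and 4676.5 UMIs per cell. DTA- replicate 1 was thus the deepest library, and both DTA+ libraries were below both DTA- libraries. Cells with at least 4 gate genes but more than 10000 UMIs were left out by the upper limit, and there were 262, 94, 42 and 60 of them. Between 31 and 48 barcodes occurred in each pair of libraries, and 0 of the gated cells shared a barcode with a gated cell of another library. The Y-linked gene *Ddx3y* was at 70.6, 71.0, 101 and 98.4 CPM (the UMIs of a gene over those of all genes in the summed gated cells of a library, scaled to 1000000), and *Xist* had 0 UMIs in the gated cells of every library, as the label male requires.

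SOX9 is the transcription factor that starts the cartilage programme in condensing mesenchyme, and SOX5 and SOX6 act with it to switch on collagen genes of cartilage such as *Col2a1* and the 3 type IX chains. *Ecrg4* encodes a secreted peptide precursor that cartilage cells also make. In the genital tubercle the midline mesenchyme that will form the corpora cavernosa, the erectile bodies, and the condensation of the penile bone both pass through a *Sox9*-positive state. Mature corpora are made of smooth muscle, endothelium and fibroblasts.

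*Sox9* was the most abundant gate gene, at 829, 618, 716 and 776 CPM in the gated cells against 43.6, 33.3, 43.2 and 53.7 CPM in the other kept cells. *Ecrg4* was at 528, 435, 685 and 637 CPM, and *Col2a1* at 207, 233, 262 and 306 CPM. The type IX chains lay between 201 and 359 CPM in every library, *Sox5* between 154 and 216 CPM, and *Sox6*, the lowest, between 43.7 and 58.0 CPM. These values chose the cells and are given without a test. Cells just outside the gate, with 3 of the 8 genes, numbered 130, 128, 173 and 153, and those just inside, with 4 genes, 97, 129, 120 and 138. Deeper cells had more gate genes: in DTA- replicate 1 the median was 5391 UMIs at 4 genes and 8093 UMIs at all 8.

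Of the 20 genes outside the gate that separated the gated cells most evenly in all 4 libraries, *Agt*, which encodes angiotensinogen, the precursor of angiotensin, came first, at 166, 137, 198 and 144 CPM against 2.17, 2.67, 5.68 and 3.08 CPM in the other kept cells. *Krt8*, a keratin of simple epithelia, was at 222, 156, 158 and 135 CPM against 3.93, 2.86, 5.28 and 4.17 CPM. A UMI of *Krt8* was found in 58.9%, 47.3%, 42.4% and 39.3% of the gated cells and in 0.938% to 1.33% of the others, whose median depth was 4969, 4185, 3646 and 3639 UMIs. Thinned to 1000 UMIs per cell, the shares were 17.1%, 14.3%, 13.0% and 13.9% against 0.213% to 0.479%. *Cdh1*, which epithelial cells need for their junctions, had at most 1 UMI in the gated cells of any library, and *Krt18*, the usual partner of keratin 8, was at 2.85 to 8.07 CPM.

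*Bmp5*, a bone morphogenetic protein, was 7.6, 15.9, 8.5 and 7.3 times as high in the gated as in the other kept cells. The membrane protein gene *Gpm6b* was 5.9 to 6.9 times as high, and *Aspn*, a small leucine-rich proteoglycan of cartilage and periosteum, reached 684, 698, 945 and 858 CPM against 106 to 184 CPM. The transcription factor genes *Zfhx3* and *Nfib* were at 745, 683, 937 and 1075 CPM and at 1462, 1534, 1877 and 2028 CPM, in that order. *Wif1*, a secreted Wnt inhibitor, and *Grem1*, a secreted BMP antagonist, belonged to the same 20 genes, as did *Rgcc*, *Kcne1l*, *Col8a1*, *Thbs2*, *Nrp2*, *Alad*, *Fat1*, *Thsd4*, *Angptl4*, *Phgdh* and *Dbi*. Being chosen for their contrast, these values describe the gated cells and test nothing.

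**Figure D1:**
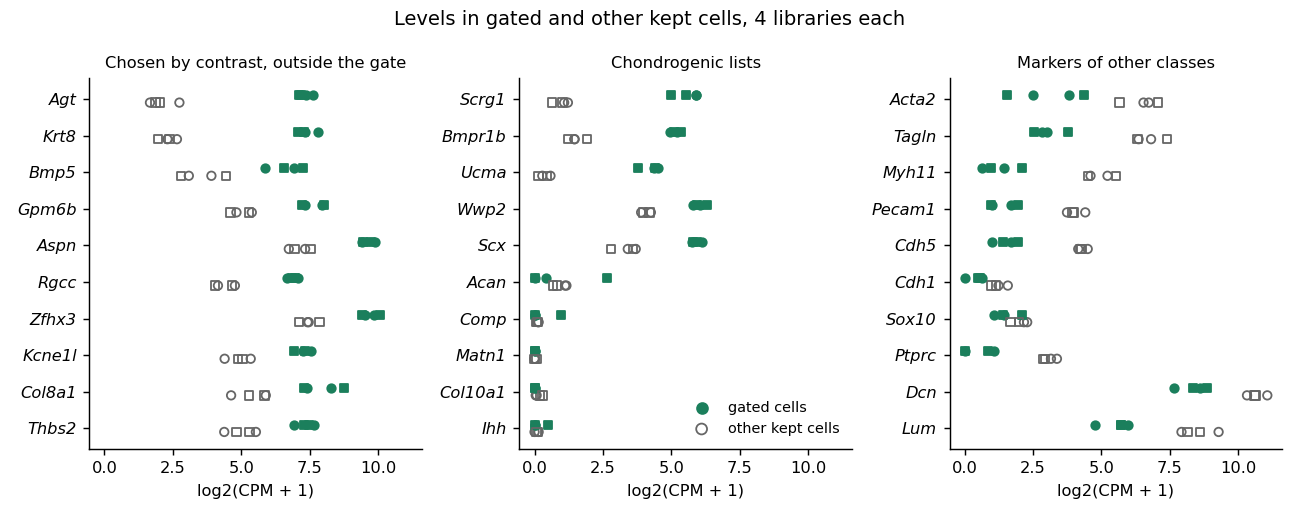
Levels as log2(CPM + 1) of 30 genes in the gated cells (filled) and the other kept cells (open), 1 point per library (circles replicate 1, squares replicate 2). *Agt* and *Krt8* lie above 130 CPM in all 4 gated sums and below 6 CPM in the others, while *Comp*, *Matn1*, *Col10a1* and *Ihh* stay under 1 CPM in both and *Acan* reaches 5.28 CPM in the gated cells of DTA- replicate 2.

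Genes with known roles in cartilage differed in level between the gated and the other kept cells in both directions. The 16 regulators outside the gate summed to 504, 508, 571 and 554 CPM in the gated cells against 614 to 822 CPM in the others, the 9 hypertrophic genes to 122 to 194 CPM against 164 to 260 CPM, and the 23 matrix genes to 282, 379, 450 and 435 CPM against 171 to 185 CPM. *Scrg1*, a gene of chondrogenic stem cells, was at 59.2, 45.1, 59.0 and 30.9 CPM against 0.546 to 1.33 CPM, and *Bmpr1b*, the BMP receptor of cartilage condensations, at 29.9, 32.9, 35.9 and 39.4 CPM against 1.34 to 2.78 CPM. *Ucma*, a secreted protein of young chondrocytes, lay between 12.8 and 21.9 CPM against 0.109 to 0.497 CPM. *Wwp2*, a ubiquitin ligase whose gene is a SOX9 target, was at 55.0 to 78.4 CPM against 13.9 to 18.1 CPM, and *Scx*, the transcription factor of tendon and ligament precursors, at 52.8 to 68.2 CPM against 5.98 to 12.0 CPM. By contrast *Acan*, the main proteoglycan of mature cartilage, had 1, 13, 0 and 0 UMIs. *Comp* had 2 UMIs, *Epyc* 1, and *Matn1*, *Col10a1*, *Ibsp* and *Bglap* 0 in all gated cells together. Of the 9 genes listed for hypertrophic cartilage 5 had no UMI, and of the 12 osteogenic ones 4.

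The label corpus cavernosum-like was checked against the smooth muscle and endothelial markers that mature corpora express. *Acta2* was at 4.71, 19.5, 12.9 and 1.90 CPM in the gated cells against 105, 134, 92.1 and 49.6 CPM in the others. *Myh11* stayed at or under 3.25 CPM, *Cnn1* had 2 UMIs in all, and *Pecam1* and *Cdh5* were between 0.951 and 2.85 CPM against 12.4 to 21.6 CPM. *Des*, a muscle intermediate filament gene, went the other way, at 66.6, 60.5, 34.3 and 31.8 CPM against 11.7 to 32.1 CPM. Most of these markers of mature corpora were thus lower in the gated cells, and the cells are called gated cells from here on. The fibroblast genes *Dcn* and *Lum* were also lower. *Dcn* was at 201, 322, 393 and 459 CPM against 1283 to 2147 CPM, and *Lum* at 26.6 to 61.2 CPM against 243 to 624 CPM. Other matrix genes, *Aspn*, *Col8a1* and *Thbs2*, were higher in the gated cells. *Hoxd13* and *Hoxa13*, which pattern the tip of the limb and the genital tubercle, were at 142 to 191 CPM and at 66.6 to 87.9 CPM.

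**Figure D2:**
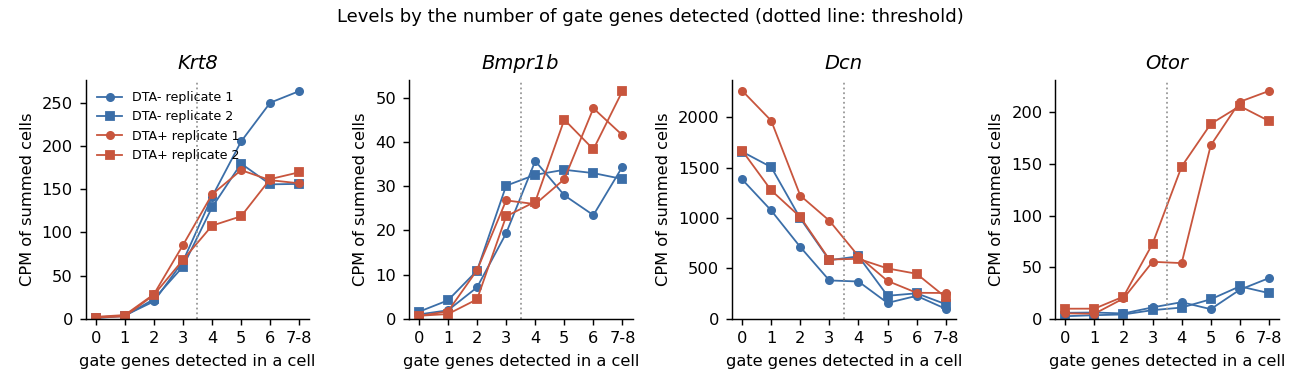
Level in CPM of 4 genes that the gate did not use, in cells summed by the number of gate genes detected (0 to 8), for each library. Up to 3 gate genes *Krt8* and *Bmpr1b* climb and *Dcn* is lower from step to step in all 4 libraries, and *Otor* is high in the DTA+ libraries at every step from 3 genes on.

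Across the threshold, *Krt8* was at 66.4, 60.3, 85.2 and 68.1 CPM in cells with 3 gate genes and at 141, 129, 144 and 108 CPM in those with 4. *Dcn* was at 380, 581, 973 and 588 CPM with 3 gate genes and at 370, 620, 621 and 595 CPM with 4.

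Of the kept cells, the gate took 5.70%, 5.22%, 4.43% and 4.38%, with 95% Wilson intervals of 5.20 to 6.24%, 4.76 to 5.71%, 4.01 to 4.90% and 3.98 to 4.81%. The mean share was 5.46% ± 0.339 (SD, n = 2) in DTA- and 4.40% ± 0.0386 (SD, n = 2) in DTA+, a difference of -1.05 percentage points. The genotypes did not overlap, and an exact two-sided permutation test gave p = 0.333, the smallest that 2 against 2 libraries allow. The gate counts detected genes, and both DTA+ libraries had a lower median of UMIs per gated cell than both DTA- ones. With every cell thinned to 1000 UMIs before the gate was applied, 39, 43, 40 and 44 cells were left. These were 0.513%, 0.510%, 0.482% and 0.470% of the kept cells, so every share was far lower than without thinning. The difference was then -0.0358 percentage points, and the exact permutation test again gave p = 0.333. The genotypes still did not overlap, but these shares rest on 39 to 44 cells a library and no counting interval was computed for them. With the study's cell limits (under 7500 UMIs, and hemoglobin limits of 25% for alpha and 50% for beta chains) the difference was -0.287 percentage points (exact permutation p = 0.667). Whether depth accounts for the lower share in DTA+ was not tested.

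To ask what the ablation changed inside these cells, UMIs were summed over the gated cells of each library and DTA+ was compared with DTA- with the quasi-likelihood test of edgeR, and p-values were adjusted after Benjamini and Hochberg over the 10745 genes tested. All adjusted p-values below come from this test unless another is named, fold changes are DTA+ over DTA-, and SE is the standard error of a log2 fold change. In all, 723 genes (6.73%) had an adjusted p under 0.05, 358 of them higher (3.33%) and 365 lower (3.4%) in DTA+. The median log2 fold change of all tested genes was -0.0015. Counts of called genes in the lists below were not tested against the shares over all genes. In 51.8% of the tested genes the 2 genotypes did not overlap. The number of calls depended on which cells and libraries were used: it was 49 when cells above 10000 UMIs were kept too, 248 with DESeq2, 216 without DTA+ replicate 2, 268 without DTA+ replicate 1 and 1673 without DTA- replicate 2. Of the 93 called genes given with a fold change here, 52 lost the call when some 1 library was left out, 47 of them without DTA+ replicate 2, and 23 moved by over 1.5 times on the log2 scale.

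Transcripts of the engineered Rosa26 locus were higher in DTA+. *tdTomato* had 0 UMIs in the gated cells of both DTA- libraries and 90 and 104 UMIs (50.5 and 49.4 CPM) in the DTA+ ones. Against a floor of 3 UMIs over the 2 DTA- libraries together, this was at least 90.6-fold higher. *Gt(ROSA)26Sor*, the noncoding transcript of Rosa26 (ENSMUSG00000086429; GRCm38 chromosome 6, 113067428 to 113077333), was at 22.2, 25.2, 98.8 and 130 CPM (log2 fold change 2.20, SE 0.21, adjusted p = 8.06e-08). In the other kept cells its log2 fold change was 2.26. *Nr5a1* had 0 UMIs in the gated cells of all 4 libraries. In the other kept cells *tdTomato* was at 0, 0, 86.7 and 69.4 CPM, so the reporter mRNA was not particular to the gated cells. The study calls this mRNA leaky at a low level in most cells and took only cells with high counts as lineage positive. Counts per cell were not examined here. The control genotype, as the study gives it with its single-cell results, names no reporter allele, so the call is no measure of a response in these cells.

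Of the 21 Wnt genes tested, 7 rose, beside 3.33% of all genes tested. A filter on low counts can keep a gene, such as *Sfrp4*, for its level in DTA+ alone. Without that filter 30 Wnt genes were tested and 7 rose, beside 384 of 17944 genes in all. The list was chosen with earlier results of these data known, so its count is no independent support. Of the 7 that rose, 5 encode secreted inhibitors, a grouping that was not tested. Other secreted inhibitors in the list were not called or not tested, and 12 of the 21 tested genes were not called. Among the 5, *Dkk3* lost its call without any 1 library but DTA- replicate 2. Wnt ligands bind Frizzled receptors at the cell surface, and SFRP proteins and WIF1 capture the ligands while DKK2 acts on the co-receptor. *Sfrp1* (ENSMUSG00000031548; GRCm38 chromosome 8, 23411502 to 23449632, protein coding) was at 9.75, 18.7, 167 and 131 CPM. Both DTA+ libraries stood far above both DTA- ones (log2 fold change 3.33, SE 0.24, adjusted p = 2.16e-10). *Sfrp4* had 1 UMI in the DTA- libraries together and 76 in the DTA+ ones, a ratio of 106 with an exact 95% interval for counting error from 18.5 to 4257 (adjusted p = 2.23e-07). *Wif1*, the most abundant gene of the list (GRCm38 chromosome 10, 121033960 to 121100650), was at 341, 356, 756 and 697 CPM, with a log2 fold change of 0.98 (SE 0.14, adjusted p = 2.45e-05). *Dkk2* was at 17.1, 27.6, 74.7 and 77.0 CPM, with a log2 fold change of 1.70.

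Of the 30 Wnt genes listed, 21 were tested, 7 rose and 2 fell, with a median log2 fold change of 0.30 beside -0.0015 for all genes. The other 3 that rose were the receptor *Ror1* (1.63), the inhibitor *Dkk3* (0.77) and the ligand gene *Wnt5a*, which was at 237, 240, 325 and 438 CPM (0.60, adjusted p = 0.0161). *Rspo2*, which enhances Wnt signals, fell by 2.02 on the log2 scale, and *Lef1*, a transcription factor of the pathway, fell by 0.72. *Rspo2* lost its call without any 1 of the 4 libraries, *Lef1* without any but DTA- replicate 1 (-0.44 without DTA- replicate 2), and *Wnt5a* (0.37) and *Ror1* (1.52) without DTA+ replicate 2. *Axin2*, a direct target, was at 26.6, 32.1, 39.3 and 35.2 CPM and was not called (adjusted p = 0.528). Without an upper UMI limit, 4 Wnt genes were called, *Sfrp1*, *Sfrp4*, *Wif1* and *Dkk2*, all higher.

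*Otor* showed the largest rise of a cartilage gene. It encodes otoraplin, a secreted protein of the MIA family first known from the cochlea and cartilage (ENSMUSG00000027416; GRCm38 chromosome 2, 143078473 to 143081713), and was at 24.2, 21.1, 156 and 182 CPM. The log2 fold change was 2.81 (SE 0.20, adjusted p = 1.55e-10), against 0.99 in the other kept cells. Its relative *Mia* went the other way, at 26.6, 32.9, 14.0 and 11.4 CPM (-1.30, adjusted p = 0.00299). *Hapln1*, the link protein that fastens aggrecan to hyaluronan, was at 26.2, 39.8, 14.6 and 9.98 CPM (-1.50, adjusted p = 0.00133). *Pcolce2*, an enhancer of procollagen processing, fell (-1.95), and *Chad*, the matrix protein chondroadherin, rose (1.81). *Chad* lost its call without DTA+ replicate 1 (0.98), and *Pcolce2* without DTA- replicate 2 (-1.24) and without DTA+ replicate 2 (-1.15), while it was -3.47 without DTA+ replicate 1. *Mia* and *Hapln1* lost theirs without DTA+ replicate 2. Of the 23 cartilage matrix genes outside the gate, 10 were tested, with a median of -0.27. Of these, 2 rose and 3 fell, beside 3.33% and 3.4% of all genes tested. Without DTA+ replicate 2 it was 2 higher and 0 lower (median -0.03), and without DTA- replicate 2 the median was -0.02.

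Of the 16 listed regulators of cartilage, 8 were tested, and the calls were *Arid5b* (0.65, adjusted p = 0.0446), which rose, and *Runx1* (-1.46, adjusted p = 0.0382), which fell. Among all genes tested 3.33% rose and 3.4% fell. *Trps1*, the most abundant, was at 194, 199, 235 and 236 CPM, and *Scrg1*, *Bmpr1b* and *Wwp2* were not called. *Arid5b* lost its call in 12 of 18 alternatives, DESeq2 among them, and was 0.38 without DTA- replicate 1. *Runx1* lost its call in 6 of the 15 that gave it an adjusted p, with -0.57 without DTA- replicate 2 and -0.04 without an upper UMI limit. Of the hypertrophic genes (2 tested, median -0.22) and the osteogenic ones (4 tested, median -0.65), 0 were called by the quasi-likelihood test or DESeq2, with an unadjusted edgeR p under 0.05 for 2 of the first and 3 of the second. The likelihood ratio test, RLE size factors and the replicate block each called 1 gene lower in either list. Without the filter on low counts 1 gene was also called lower in either list. The medians were then -1.58 over 4 hypertrophic genes and -0.61 over 8 osteogenic ones. The hypertrophic median was 0.10 without DTA+ replicate 1 and -0.75 without DTA+ replicate 2 (1 lower), with 1 gene called in each direction without DTA- replicate 2. The osteogenic median was -0.40 without DTA+ replicate 1, and 2 genes were called lower without DTA- replicate 2 and 1 without DTA+ replicate 2. *Mef2c* was the most abundant of the first, at 89.4 to 170 CPM, and *Dlx5* of the second, at 25.8 to 48.7 CPM. In the tendon and fibrous list, *Mkx*, a transcription factor of tendon cells, was at 43.4, 53.6, 11.2 and 18.1 CPM and fell (-1.78, SE 0.26, adjusted p = 4.97e-05), while *Dcn* rose (0.63, adjusted p = 0.0248). The list had 5 tested genes and a median of 0.06, which was -0.47 without DTA+ replicate 2. *Dcn* lost its call without any of DTA- replicate 1, DTA+ replicate 1 and DTA+ replicate 2. It was 0.32 without DTA- replicate 1, 1.02 without DTA- replicate 2 and 0.07 without an upper UMI limit.

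**Figure D3:**
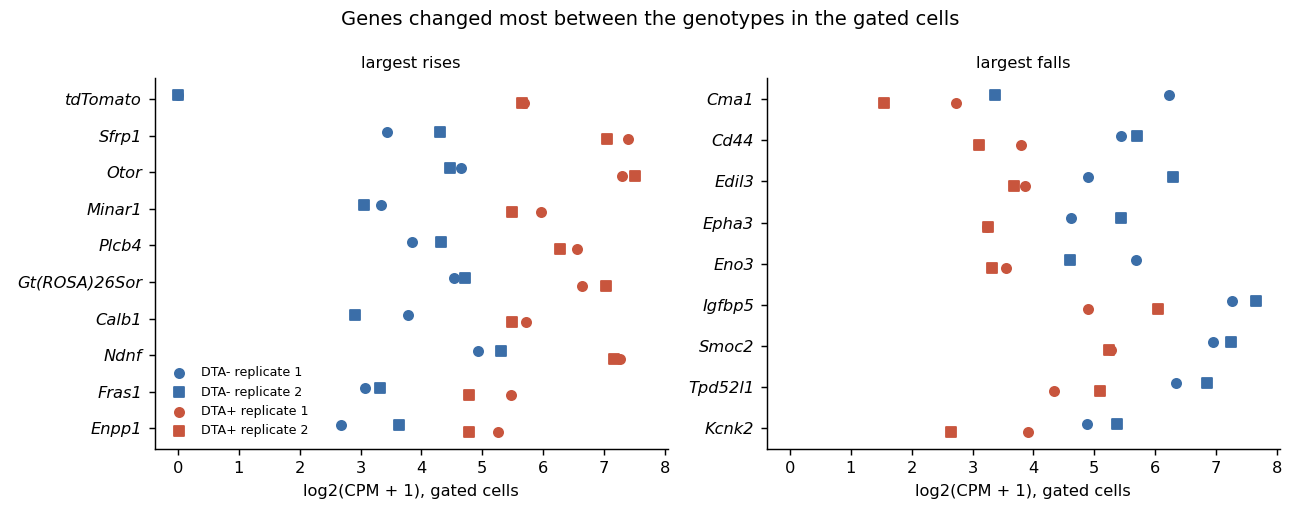
Levels as log2(CPM + 1) in the gated cells of each library for 10 genes with the largest rises and 9 with the largest falls among called genes whose mean reached 20 CPM and whose genotypes did not overlap. Blue points are DTA- and red points DTA+, with circles for replicate 1 and squares for replicate 2. *Cma1* is the gene whose 2 DTA- libraries lie farthest apart, at 73.9 and 9.34 CPM.

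The other strong rises were in genes of varied function. *Ndnf*, a secreted neurotrophic factor, was at 29.6, 38.6, 153 and 142 CPM (2.04, SE 0.20). *Plcb4*, a phospholipase C, was at 13.4, 19.1, 93.2 and 76.5 CPM (2.31, SE 0.23), and *Fras1*, a basement membrane protein, at 7.39, 8.93, 43.2 and 26.6 CPM (2.01, SE 0.30). *Minar1* (2.58), the calcium-binding protein gene *Calb1* (2.19) and *Enpp1* (1.87), whose enzyme makes pyrophosphate, completed the 10. For *Minar1*, *Calb1* and *Enpp1* the other kept cells gave 2.36, 1.37 and 2.08. Adjusted p-values of these 6 genes lay between 8.06e-08 for *Ndnf* and 0.000281 for *Enpp1*.

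Among the falls, *Cd44*, the hyaluronan receptor (GRCm38 chromosome 2, 102811141 to 102901665), was at 42.4, 50.7, 12.9 and 7.60 CPM (-2.27, SE 0.28, adjusted p = 4.71e-06). *Smoc2*, a matricellular protein (chromosome 17, 14279506 to 14404790), was at 122, 151, 37.6 and 36.6 CPM (-1.95, SE 0.20). *Igfbp5*, which binds insulin-like growth factors, was at 153, 201, 28.6 and 65.1 CPM (-1.97, SE 0.24). The integrin ligand *Edil3* (-2.13), the ephrin receptor *Epha3* (-2.01), the enolase *Eno3* (-1.99), *Tpd52l1* (-1.95) and the potassium channel *Kcnk2* (-1.94) also fell. *Edil3* was -1.26 without DTA- replicate 2 and *Eno3* -1.32 without DTA- replicate 1, with the calls kept, and *Edil3* was not called by DESeq2, with thinned cells or without an upper UMI limit. In the other kept cells *Tpd52l1* gave -1.97. The largest fall by the rule, that of the mast cell protease *Cma1* (-3.61), rested on DTA- replicate 1 (73.9, 9.34, 5.62 and 1.90 CPM) and turned to 1.68 without an upper UMI limit.

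**Figure D4:**
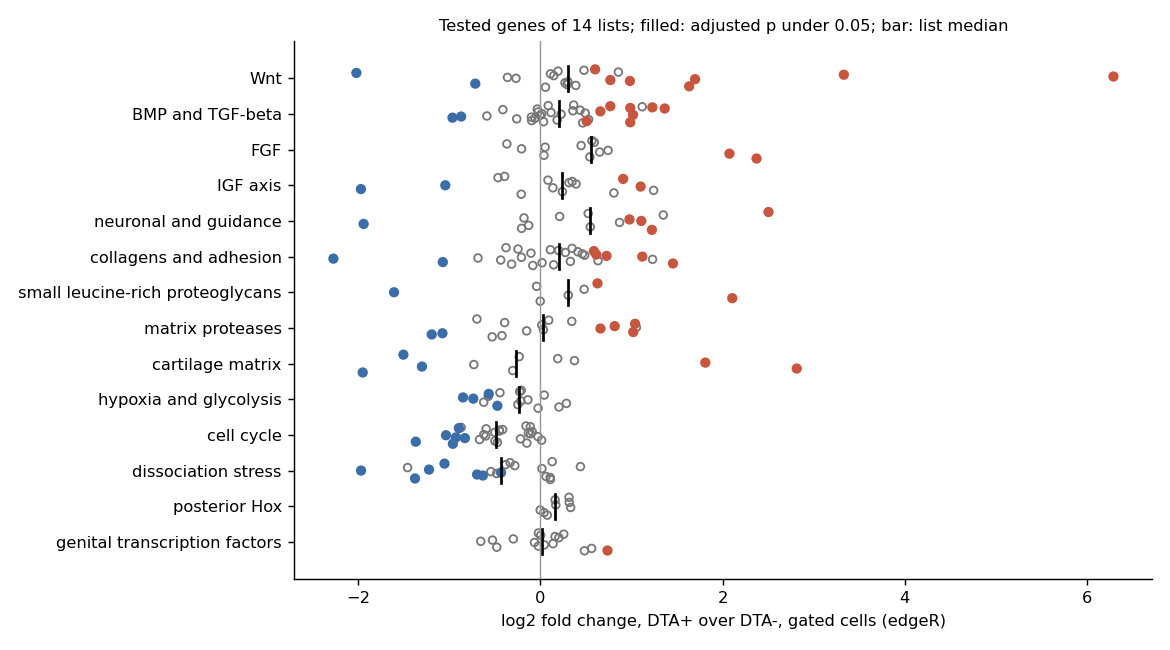
Log2 fold changes (DTA+ over DTA-, edgeR) of the tested genes of 14 lists in the gated cells, 1 point per gene. Filled red and blue points have an adjusted p under 0.05, open points do not, and the black bar is the median of the list, which is 0.30 for Wnt and -0.49 for the cell cycle.

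Of 36 BMP and TGF-beta genes listed, 32 were tested, 8 rose and 2 fell, with a median of 0.21. Among all genes tested 3.33% rose and 3.4% fell. *Inhba*, which encodes the activin A subunit, was at 50.1, 46.7, 117 and 145 CPM (1.36, SE 0.19, adjusted p = 2.14e-05). The ligand genes *Gdf10* (46.0, 46.3, 101 and 92.2 CPM; 0.99), *Gdf6* (1.23) and *Bmp5* (0.77) also rose. *Smad6* (0.99) and *Id3* (0.51), which BMP signals switch on, and the receptors *Bmpr2* (0.66) and *Tgfbr3* (1.02) rose too. Both genes that fell encode secreted antagonists: *Grem1* was at 129, 142, 93.8 and 63.2 CPM (-0.87, adjusted p = 0.0041), and *Fst* fell by 0.97 on the log2 scale. *Fst* lost its call without DTA- replicate 2 (-0.68) and without either DTA+ library. *Id1*, the most abundant member, was at 1013, 821, 965 and 1231 CPM and was not called. Without an upper UMI limit 0 genes of the list were called by edgeR, 11 having an unadjusted p under 0.05, and with the limit DESeq2 called 4. Without DTA+ replicate 2 edgeR called 2 rises and 0 falls, and without DTA+ replicate 1 it called 3 and 1. *Bmp5* (0.44) and *Tgfbr3* (0.52) lost their calls without DTA- replicate 1, and *Gdf6* (0.82) without DTA+ replicate 2. So did *Smad6* (0.93) and *Bmpr2* (0.48) without DTA- replicate 1, and both also without either DTA+ library. *Id3* lost its call without either DTA+ library (0.58 without replicate 1, 0.43 without replicate 2).

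*Grem1* is also a marker of the *Nr5a1* lineage by the study's account. The list of such markers was put together from genes that the study names, some of which it also examined in these libraries, so it is no independent evidence of direction. Of its 8 genes, 4 were tested and 2 fell, beside 3.4% of all genes tested. These 2 were *Grem1* and the metalloproteinase inhibitor *Timp1* (31.6, 25.6, 16.3 and 10.5 CPM; -1.19, adjusted p = 0.00706). The median was -0.74, and both lost the call without DTA+ replicate 2.

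In the FGF list of 16 genes, 12 were tested and 2 rose, beside 3.33% of all genes tested. Both are targets of the pathway and were low in the DTA- libraries. A filter on low counts can keep such genes for their level in DTA+ alone. Without that filter 16 were tested, 2 rose and 1 fell. *Etv5* was at 4.03, 4.06, 20.8 and 23.8 CPM (2.37, adjusted p = 4.11e-05) and *Spry4* at 1.34, 2.84, 7.30 and 10.9 CPM (2.08, adjusted p = 0.0121). The most abundant member, the receptor *Fgfr1*, was at 149 to 176 CPM, and the list's median was 0.55, which was 0.14 without DTA+ replicate 2 and -0.02 with cells thinned to 1000 UMIs. *Spry4* lost its call without DTA- replicate 1 and without DTA+ replicate 2, and DESeq2 called 0 genes of the list (2 with an unadjusted p under 0.05) and gave no adjusted p to 7, *Etv5* and *Spry4* among them. Among the 12 tested of 15 hedgehog genes, the co-receptor *Cdon* fell (-1.07, adjusted p = 0.00188) and no gene rose. Of all genes tested, 3.4% fell and 3.33% rose. With the crossed pairing of replicates, chosen after seeing the data, 2 hedgehog genes rose and 2 fell. *Cdon* lost its call without DTA+ replicate 2. The median was -0.15 (0.12 without DTA- replicate 2), and *Gas1*, another co-receptor and the most abundant, was at 834, 751, 745 and 577 CPM.

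The insulin-like growth factor axis was split between its binding proteins. *Igfbp2* (GRCm38 chromosome 1, 72824503 to 72852474) was among the most abundant transcripts of all lists, at 1388, 1108, 665 and 611 CPM (-1.04, SE 0.13, adjusted p = 5.46e-06). *Igfbp3* was at 87.7, 94.2, 197 and 215 CPM (1.10), and the receptor *Igf1r* at 119, 136, 238 and 266 CPM (0.91, adjusted p = 0.00049). *Igf1r* lost its call without DTA+ replicate 2 (0.83). Of 15 tested genes 2 rose and 2 fell, *Igfbp5* being the other that fell, beside 3.33% and 3.4% of all genes tested. The median was 0.24, which was 0.05 without DTA- replicate 1 and -0.05 with thinned cells. Without an upper UMI limit 0 rises and 1 fall were called, and *Igfbp5* was -0.94.

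Matrix genes changed in both directions, as did all genes tested, of which 3.33% rose and 3.4% fell. *Postn*, periostin, was at 164, 229, 457 and 445 CPM (1.12, SE 0.16, adjusted p = 3.96e-05), and *Npnt*, nephronectin, at 37.0, 43.4, 82.6 and 148 CPM (1.46). *Fn1* (0.73), *Col4a1* (0.61) and *Col6a1* (0.59) rose as well, and *Cd44* and the collagen-binding integrin *Itga11* (-1.07) fell. In the list of collagens and adhesion genes 27 were tested, with a median of 0.20, and *Col1a2*, the most abundant, was at 856 to 1463 CPM. The calls in this list were 15 higher and 2 lower without DTA- replicate 2 (median 0.45), 3 and 5 without DTA- replicate 1 (median 0.05), 2 and 2 without DTA+ replicate 1, and 1 and 1 without DTA+ replicate 2. Without an upper UMI limit 0 were called by edgeR, 6 having an unadjusted p under 0.05. Without DTA- replicate 1, *Fn1* (0.39) and *Col4a1* (0.35) lost their calls, and *Npnt* did so without DTA+ replicate 2 (0.96). Of 7 tested small leucine-rich proteoglycans, *Ogn* (GRCm38 chromosome 13, 49608046 to 49624501) fell, from 309 and 491 CPM to 161 and 117 CPM (-1.61, SE 0.19, adjusted p = 2.53e-06). *Ecm2* (2.11) and *Dcn* rose, the most abundant, *Bgn*, was at 803 to 984 CPM, and the median was 0.31 (0.09 without DTA+ replicate 1). Of 16 tested proteases and inhibitors, *Mmp16* (1.02), *Adamts6* (1.04), *Mmp2* (147, 156, 271 and 236 CPM; 0.66) and *Adamts12* rose and *Timp1* and *Mmp23* (-1.08) fell. *Mmp14*, the most abundant, was at 231 to 261 CPM, and the median was 0.02 (-0.11 to 0.27 without 1 library). *Mmp23* lost its call without any 1 of the 4 libraries. Without DTA- replicate 1 there were 1 higher and 3 lower, *Mmp16* (0.66) and *Adamts6* (0.92) losing their calls, and without DTA+ replicate 1 there were 0 higher and 1 lower. Without DTA+ replicate 2 and without an upper UMI limit 0 genes were called by edgeR, each time with 8 at an unadjusted p under 0.05, and DESeq2 called *Mmp2* alone.

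*Fkbp5*, a gene that glucocorticoids induce, was at 21.8, 30.9, 7.30 and 9.51 CPM in the gated cells (-1.70, SE 0.30, adjusted p = 0.000617). In the other kept cells it was at 78.0, 79.9, 13.5 and 13.9 CPM, higher in the DTA- libraries than in their gated cells. *Mt1*, a metallothionein, was at 19.2, 35.3, 1.68 and 2.85 CPM (-3.59, and -0.72 with the call lost without an upper UMI limit), and *Sgk1*, a kinase whose gene glucocorticoids also induce, went up instead, from 12.1 and 9.34 CPM to 46.6 and 34.2 CPM (1.81, adjusted p = 5.79e-05). Of 19 listed genes 14 were tested, and 1 rose and 2 fell, beside 3.33% and 3.4% of all genes tested. The median was -0.37, and *Dusp1*, the most abundant, was at 172 to 350 CPM. Among steroid receptors and enzymes, with 7 tested and a median of 0.10, the call was *Esr1*, the estrogen receptor, at 5.71, 4.47, 24.1 and 21.4 CPM (2.06). In the other kept cells *Esr1* gave 2.19.

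Guidance and neuronal genes had a median of 0.55. They rose in 4 of 13 tested cases and fell in 1, *Kcnk2*, beside 3.33% and 3.4% of all genes tested. The repellents *Slit2* (52.8, 70.6, 127 and 129 CPM; 0.98) and *Slit3* (1.11), the adhesion molecule *Ncam2* (1.22) and the RNA-binding protein gene *Elavl2* (3.70, 2.84, 18.5 and 21.4 CPM; 2.50) were the 4. *Elavl2* gave 2.20 in the other kept cells. It was low in the DTA- libraries, and a filter on low counts can keep such a gene for its level in DTA+ alone. Without that filter 20 genes of the list were tested, 5 rose and 1 fell. *Ncam1*, the most abundant, was at 124 to 157 CPM. Without DTA+ replicate 2 the list had 2 rises, *Ncam2* (0.56) and *Slit3* (0.78) losing theirs, and DESeq2 called 1 rise with 5 genes lacking an adjusted p. Without an upper UMI limit 0 genes were called by edgeR, 8 having an unadjusted p under 0.05, and the median with thinned cells was -0.04. Of 8 tested posterior Hox genes 0 were called by edgeR and 0 by DESeq2, and 0 had an unadjusted p under 0.05, with a median of 0.16 and *Hoxd13* at 155, 145, 142 and 191 CPM. Of 16 tested genital transcription factor genes, *Meis2* rose (0.73, adjusted p = 0.0275, a call lost without either DTA+ library and with DESeq2), beside 3.33% of all genes tested. The median was 0.02 (-0.20 to 0.22 without 1 library), and *Isl1*, the most abundant, was at 248 to 338 CPM.

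Of all genes tested 3.4% fell and 3.33% rose, shares that stand beside each list count in this paragraph. Of 26 tested cell cycle genes 6 fell and 0 rose, with a median of -0.49. *Cdkn1c*, an inhibitor of the cycle and the most abundant of the list, was at 1548, 1239, 728 and 780 CPM (-0.96, SE 0.13, adjusted p = 1.23e-05). The cycle genes *Ccne1* (-1.37), *Rrm2* (-1.04) and *Ube2c* (-0.93) fell as well. *Ube2c* was -0.58 without DTA- replicate 2 and 0.65 with the gate applied after thinning, and it lost its call without either DTA+ library, as *Ccne1* and *Rrm2* did without DTA+ replicate 2. With the study's cell limits, without DTA+ replicate 2 and without an upper UMI limit 1 gene of the list was called each time, with list medians of -0.18, -0.47 and -0.86 and 6, 6 and 19 of the 26 genes at an unadjusted p under 0.05, beside 14 with the limits used here. *Aldoa* (364, 410, 228 and 225 CPM; -0.85), *Eno1* (-0.74), *Ldha* (-0.57) and *Gapdh* (997, 810, 726 and 647 CPM; -0.47) were the 4 falls among 16 tested hypoxia and glycolysis genes, whose median was -0.24. Without DTA+ replicate 2 edgeR called 0 of the list, 5 having an unadjusted p under 0.05, and the median was -0.39. Without DTA- replicate 1 it was -0.46, with 6 falls. Of 19 genes known to respond to tissue dissociation 7 fell and 0 rose, with a median of -0.43. They were led by *Hspa1a* (-1.97), *Ccn1* (-1.38), *Ier3* (-1.22) and *Jun* (-1.05), the last 2 at -0.71 and -0.58 without DTA- replicate 2. *Hspa1a* lost its call without DTA- replicate 1 (-1.48) and *Ccn1* without DTA+ replicate 2 (-0.94). With no upper UMI limit edgeR called 0 of the list, 5 having an unadjusted p under 0.05. *Fos*, the most abundant, was at 2198, 5120, 4281 and 4198 CPM, lowest in a DTA- library, and the list's summed level was 10362, 20234, 14138 and 14249 CPM. Without DTA- replicate 2 the list's median was 0.0921, with 5 calls in each direction, and DESeq2 called 0 of the list, 5 having an unadjusted p under 0.05. Its part in the other results was not tested.

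Markers of other cell types were measured for the same sums. Beside each count in this and the next paragraph stand the 3.33% that rose and 3.4% that fell among all genes tested. The 8 endothelial genes summed to 26.9, 19.5, 14.0 and 17.6 CPM against 93.5 to 127 CPM in the other kept cells, 1 was tested and it fell (*Egfl7*, -1.25). *Egfl7* lost its call without DTA- replicate 1 (-0.74), without either DTA+ library and without an upper UMI limit (-0.50). The 10 smooth muscle genes summed to 87.1, 117, 70.8 and 53.2 CPM, with 4 tested, a median of -0.86 and 1 fall, the intermediate filament gene *Des* at 66.6, 60.5, 34.3 and 31.8 CPM (-1.02, adjusted p = 0.00198). *Des* lost its call without DTA+ replicate 2 (-0.97). The sign of the list's median was not stable, at 0.51 without DTA- replicate 2, 0.06 without DTA+ replicate 2 and 0.04 with at least 3 gate genes. Of 14 erectile signalling genes 9 were tested, and the endothelin receptor *Ednrb* rose (4.03, 5.28, 24.7 and 14.7 CPM; 1.99), while *Agt* was not called. The list's median was 0.09, and it ran from -0.12 to 0.36 without 1 library. *Ednrb* lost its call without DTA+ replicate 1 (1.59) and without an upper UMI limit (0.46), and DESeq2 gave it no adjusted p. Glial precursors also express it, and the glial sums given next were higher in the same DTA+ libraries. In the pericyte list, 3 tested genes gave 0 calls by edgeR or DESeq2 and 0 unadjusted p-values under 0.05, a median of 0.18 and *Cspg4* as the most abundant, at 28.0 to 34.2 CPM.

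Glial genes summed to 15.8, 31.7, 51.7 and 52.3 CPM, above the DTA- libraries in both DTA+ ones. The defining gene *Sox10* had 2 to 7 UMIs a library. *Fabp7*, a fatty acid binding protein of glial precursors, was at 0, 4.06, 9.55 and 7.60 CPM (2.08). Its change was 0.98 without DTA- replicate 1 and 7.27 without DTA- replicate 2, where the DTA- library left was at 0 CPM. It lost its call without any 1 library but DTA- replicate 2. Of 3 tested glial genes 2 rose, *Fabp7* among them, and without the filter on low counts 2 of 7 rose, with a median of 1.18. These calls did not hold in every setting: 0 genes were called without DTA- replicate 1 (4 tested, median 0.58, 1 with an unadjusted p under 0.05) or without an upper UMI limit (6 tested, 0 with an unadjusted p under 0.05), and DESeq2 gave none of the 3 an adjusted p. Immune genes summed to 41.3, 19.1, 35.9 and 5.70 CPM, with 2 tested and the mast cell protease *Cpa3* falling (29.6, 11.0, 0.562 and 1.43 CPM; -4.33), a change that was 0.87 without an upper UMI limit. Epithelial genes gave 5 tested and 0 called by edgeR or DESeq2, 2 of them with an unadjusted p under 0.05, with *Krt8* as the most abundant and a median of -0.12, and *Krt8* itself had an adjusted p of 0.124. The epithelial median was 0.76 without DTA- replicate 1 and -0.56 without DTA+ replicate 1, and 1 gene was called lower without DTA- replicate 2 and 1 higher without DTA+ replicate 2. Hemoglobin and other erythroid genes summed to 3586, 1037, 3307 and 1493 CPM, with 4 tested, 0 called by edgeR or DESeq2, 0 with an unadjusted p under 0.05, a median of 0.09 and *Hbb-bs* the most abundant. That count turned on single libraries: without DTA- replicate 1 all 4 were called higher (median 1.24), without DTA- replicate 2 there were 2 lower and without DTA+ replicate 1 there was 1 lower (median -0.52 in both). The skeletal muscle list had 0 tested genes. The periurethral list had 5 tested, 0 called by either tool, 0 with an unadjusted p under 0.05, a median of -0.18 and *Foxf2* as the most abundant at 78.8 to 132 CPM. DESeq2 gave no adjusted p to 2 of the tested pericyte genes, 4 of the epithelial and 3 of the periurethral ones. Cells with 2 or more markers of glia, epithelium, endothelium, immune cells or skeletal muscle numbered 27, 27, 21 and 17. Without them 637 genes were called. Of the lists above, the glial one then had 1 tested gene and a median of -0.28, the immune one 0 tested genes, and *Egfl7* (-0.96) and *Cma1* (-0.75) lost their calls. *Fabp7* and *Ednrb* were below the filter on low counts, and *Des* and *Sfrp1* were still called.

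Whether a difference was particular to the gated cells was asked with an interaction term in edgeR, over the gated and the other kept cells of the same 4 libraries. It had an adjusted p under 0.05 for 393 of 15518 genes (2.53%), 222 in the positive and 171 in the negative direction. The largest positive ones, among genes whose mean reached 20 CPM, were *Plcb4* (a log2 difference of 2.65, SE 0.17, adjusted p = 8.11e-14), whose change was 2.31 in the gated and -0.36 in the other kept cells, and *Sfrp1* (2.53, SE 0.23, adjusted p = 4.3e-10), with 3.33 and 0.81. *Tafa1* (2.06), *Fras1* (2.03) and *Sgk1* (1.88) followed, each between -0.34 and -0.04 in the other cells. The largest negative ones were *Cma1* (-3.68), *Smoc2* (-2.10, SE 0.17), *Edil3* (-2.06) and *Cd44* (-1.92). The term of *Cma1* lost its call without DTA- replicate 1 (-1.36), while the other 8 kept theirs whichever library was left out, *Edil3* at -1.41 without DTA- replicate 2. The change of *Cma1* in the gated cells was -0.75, below the threshold, without cells that held 2 markers of another class. *Smoc2* changed by -1.95 in the gated cells and by 0.14 in the others. *Wif1* and *Otor* had adjusted interaction p-values of 5.18e-07 and 1.03e-06, while *Fkbp5* (0.136), *Esr1* (0.958) and *Minar1* (0.921) missed the threshold, which does not show equal changes.

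**Figure D5:**
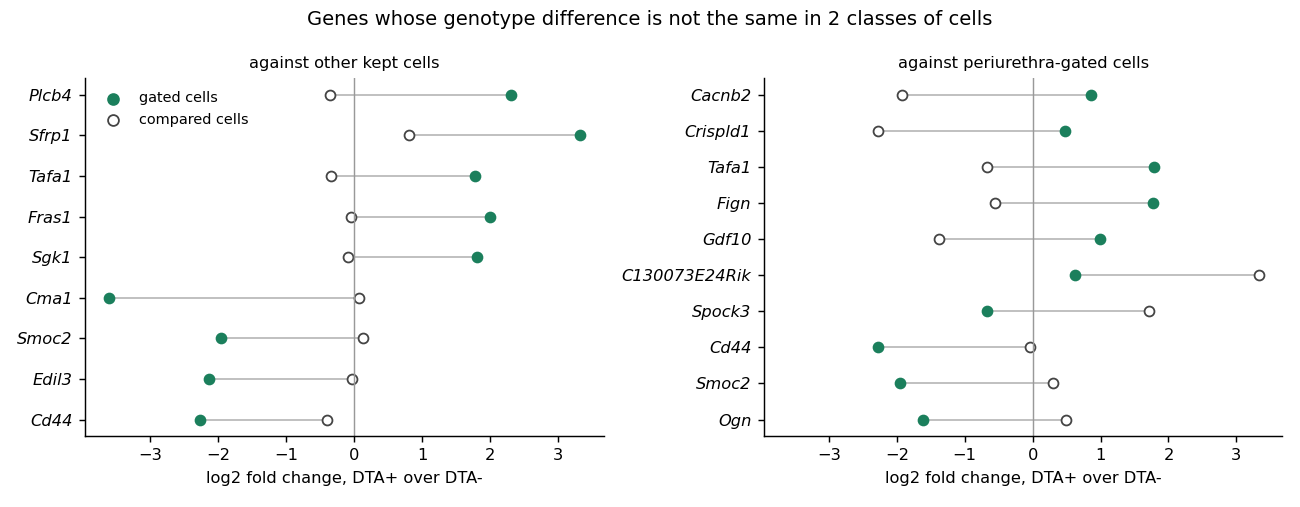
Log2 fold changes (DTA+ over DTA-) in the gated cells (filled) and in the compared cells (open) for genes with the largest called interactions in each direction. The left panel compares with the other kept cells and the right one with the periurethra-gated cells, where *Cacnb2* and *Crispld1* are -1.93 and -2.28 in the compared cells.

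Periurethral mesenchyme, the tissue beside the urethra, was taken as a further comparison by a gate of at least 3 of 6 markers, which gave 262, 249, 150 and 373 cells outside the chondrogenic gate. The interaction was called for 171 of 11261 genes (1.52%). Most positive were *Cacnb2* (2.79), *Crispld1* (2.75), *Tafa1* (2.32), *Fign* (2.32) and *Gdf10* (2.29), and most negative *C130073E24Rik* (-2.71), *Spock3* (-2.39), *Cd44* (-2.29), *Smoc2* (-2.23) and *Ogn* (-2.05). *Crispld1*, *C130073E24Rik* and *Spock3* had changes of 0.48, 0.63 and -0.68 in the gated cells, below the threshold there, and -2.28, 3.33 and 1.71 in the periurethral ones. *Ogn* was -1.61 in the gated and 0.49 in the periurethral cells. Of these interactions, *Tafa1* (1.71) and *Gdf10* (1.08) lost their calls without DTA- replicate 2 and also without DTA+ replicate 2, *Cd44* without DTA+ replicate 2 (-1.93) and *Fign* without DTA- replicate 1 (1.69).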

How the data were processed

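Per the labels and the methods, the authors made 10x Genomics 3' libraries of 2 DTA- and 2 DTA+ male genitalia, sequenced them in 1 pool and aligned them to mm10 with reporter sequences (the submitters' processing notes give Cell Ranger 4.0.0). The deposited values are whole UMI counts per gene and barcode for 32287 features, not normalized, and no per-sample column was left unmapped. 3' UMI counts do not scale with transcript length, so CPM were compared between genes without length correction. Members and gene lists were chosen with earlier results of these data known.

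Counts were summed per library over the gated cells and tested with edgeR 4.0.16 in R 4.3.3 (TMM, filterByExpr, quasi-likelihood, genotype only, Benjamini-Hochberg over all tested genes). The 8 gate genes stayed in library sizes and were not tested. Interactions had the library as a term. Doublets were not called. Instead, cells with 2 markers of another class were left out as an alternative. Intervals and floors cover counting error only. The tests were tried on simulated counts, and no result of that trial is used here. The likelihood ratio test follows the study's choice, which was made on cells, and served as an alternative here, with DESeq2 1.42.0 and the settings named in the closing section. Free RNA was not removed. Genes named are members of 32 lists with the largest called change and each list's most abundant gene, the 10 largest rises and falls whose mean reached 20 CPM without overlapping genotypes, the 5 largest interactions per direction, and the 20 genes above 100 CPM with the most even contrast, on log2(CPM + 1). A few genes that these rules name are not reported here. *Axin2*, single markers of absent tissues and *Krt18* were added after their values were seen. Positions are those of GENCODE for GRCm38, the build called mm10. Python 3.11.15 with numpy 2.4.6, scipy 1.17.1, pandas 2.3.3 and matplotlib 3.10.9 did the rest.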

Additional observations from a re-analysis of the deposited data

Results flagged for a closer look

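The genotype difference was not the same in the gated cells and in another class of the same libraries, by the interaction test, for the genes given here as log2 differences of log2 fold changes. Against the other kept cells these were *Plcb4* (2.65), *Sfrp1* (2.53), *Tafa1* (2.06), *Fras1* (2.03), *Sgk1* (1.88), *Cma1* (-3.68, and -1.36 without DTA- replicate 1), *Smoc2* (-2.10), *Edil3* (-2.06) and *Cd44* (-1.92). Against the periurethra-gated cells they were *Cacnb2* (2.79), *Crispld1* (2.75), *Tafa1* (2.32), *Fign* (2.32), *Gdf10* (2.29), *C130073E24Rik* (-2.71), *Spock3* (-2.39), *Cd44* (-2.29), *Smoc2* (-2.23) and *Ogn* (-2.05). The reporter *tdTomato* is no gene of the mouse, and the study calls its mRNA leaky at a low level. It had 90 and 104 UMIs in the gated cells of DTA+ replicate 1 and replicate 2 and 0 in those of both DTA- libraries.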

How the results depend on the processing

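The count of 723 genes called in the gated cells was 248 with DESeq2, 162 with cells thinned to 1000 UMIs, 21 with the gate applied after thinning (fewer genes tested in both), 353 with *Sox9* and *Col2a1* both required and 49 with no upper UMI limit, a setting chosen after seeing the data. Leaving out 1 library gave 216 to 1673 genes, where the lone library is assumed to vary like the other genotype. The share of calls that were higher was 49.5%, 60.6% without DTA+ replicate 2, 73.5% with no upper UMI limit and 43.5% without a filter on low counts. The cause was not tested. The interaction with the other kept cells was called for 57 genes after thinning and for 304 to 437 without 1 library. With the periurethra-gated cells it was called for 328 genes without a filter, 45 after thinning and 82 to 218 without 1 library. The share difference kept its sign throughout, at -0.813 to -1.29 percentage points without 1 library and -2.19 with no upper UMI limit. Its size did not hold: it was -0.287 with the study's cell limits, where the genotypes overlapped, and -0.0358 with the gate applied after thinning.

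Of 93 called genes reported by fold change, 89 had the same sign under all 18 alternatives that could be fitted. The exceptions were *Cma1* (0.18 with at least 3 gate genes, 1.68 with no upper UMI limit), *Cpa3* (0.67 and 0.87 in the same settings), *Lef1* (0.062) and *Ube2c* (0.65), the last 2 with the gate applied after thinning. In 13 the call held in every alternative that gave an adjusted p, which DESeq2 did not for *Esr1*, *Sfrp4* and *Etv5* (nor for 3961 of the 10745 genes in all): *tdTomato*, *Sfrp1*, *Otor*, *Ndnf*, *Enpp1*, *Tafa1*, *Fkbp5*, *Esr1*, *Igfbp2*, *Sfrp4*, *Dkk2*, *Wif1* and *Etv5*. With no upper UMI limit 73 of the 93 lost the call. Without 1 library, list medians ran from -3.66 to 1.23 for immune, -0.60 to 0.23 for periurethral, -0.02 to 0.44 for steroid receptor, -0.51 to -0.17 for glucocorticoid-induced, 0.26 to 0.41 for BMP and TGF-beta, 0.60 to 0.99 for neuronal and guidance and -0.73 to 0.09 for dissociation genes.

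Replicate numbers do not pair the libraries: deviations from the genotype means correlated at -0.1329 across 10745 genes, and the replicate block gave 632 calls. The crossed pairing, chosen after seeing the data, gave 1510 calls.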
